A study of Mus with 18 samples.

Results

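The transcripts of 10 circadian clock genes were followed through 18 mouse RNA-seq libraries, 9 of cultured cells labelled as the muscle line C2C12 and 9 of gastrocnemius muscle, in control, LPS-treated and LPS-MIC-1-treated groups. The genes were a list given by name, chosen with earlier results of these data known: Arntl, Clock, Per1, Per2, Per3, Cry1, Cry2, Nr1d1, Nr1d2 and Dbp. All 10 were present among the 21401 genes listed in each experiment. In gastrocnemius of the LPS-MIC-1 group, Per1 was 10.2-fold and Cry2 6.92-fold above control, while Dbp was 2.83-fold lower. In the cultured cells Nr1d1 was 9.96-fold above control in the LPS group. Arntl was 7.80-fold lower in the LPS-MIC-1 cells than in the LPS cells, but these groups also differed in cell type markers.

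The mammalian clock is a transcriptional loop present in almost every cell, skeletal muscle fibres included. The proteins of Arntl (also called Bmal1) and Clock pair and activate genes that carry an E-box, among them the Per and Cry genes, whose products enter the nucleus and inhibit the pair, and Nr1d1, Nr1d2 and Dbp. The nuclear receptors of Nr1d1 and Nr1d2 (REV-ERB alpha and beta) repress Arntl, so that Arntl and Dbp transcripts reach their daily peaks at opposite times, and Dbp passes the rhythm on to output genes through D-box sites.

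Each experiment held 9 libraries, 3 per group. The cell experiment was labelled as wild-type C2C12, an established mouse myoblast line, with a saline vehicle control, LPS at 1 μg/mL (lipopolysaccharide, a bacterial wall component that sets off inflammation), and LPS at 1 μg/mL together with 10 μM MIC-1 (moringa isothiocyanate-1, from seeds of Moringa oleifera) for 24 h. The text of the study names a lower MIC-1 concentration for the sequenced cells than the labels do, and its methods name ethanol as the vehicle of the cells. The tissue experiment used gastrocnemius of wild-type male C57BL/6 mice, whose age the labels leave out. Its groups were a vehicle control, LPS at 10 mg/kg injected intraperitoneally, and the same LPS dose after MIC-1 at 80 mg/kg by daily gavage for 3 days, and muscles were taken 16 h after LPS. The control vehicle of the mice was saline by the labels and DMSO in the study's description of the animal groups. The labels give neither the time of day at which cells or muscles were taken nor whether libraries came from separate cultures, so p-values measure the spread between these samples, which may be technical. Each group was taken at 1 time, and levels at 1 time give neither a phase nor an amplitude of a rhythm.

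Marker genes went against several of the labels, and the group names below are those of the labels. In the cell experiment 13 of 14 macrophage markers were found. Their summed level was 10965 to 11021 FPKM (fragments per kilobase of transcript, scaled to library size) in the libraries labelled control, 7773 to 8005 in those labelled LPS and 80.4 to 290 in those labelled LPS-MIC-1. Lyz2, the macrophage lysozyme, was at 4598 to 4761, at 1786 to 1866 and at 0.616 to 48.8 FPKM in the same order. The 11 myogenic markers ran the other way, with sums of 1.08 to 1.55, 2.23 to 4.64 and 1074 to 1326 FPKM. Myf5 and Chrng were at 0 in every control and LPS library, and the muscle transcription factor Myod1 was at 0 to 0.0355 there against 49.5 to 56.7 FPKM in the LPS-MIC-1 libraries. The 7 mesenchymal markers summed to at most 2.09 FPKM in the control and LPS libraries and to 464 to 562 in the LPS-MIC-1 libraries. A comparison with the LPS-MIC-1 cells thus also compared libraries of different cell type markers, and treatment and cell type cannot be told apart there.

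In muscle, the 12 fibre markers summed to 238536 to 243580, 225386 to 228967 and 179518 to 193601 FPKM in the control, LPS and LPS-MIC-1 groups. From control to LPS-MIC-1 muscle the fibre markers went both ways. Acta1, Ckm, Tnni2, Tnnc2, Pvalb, Mylpf and Ryr1 averaged lower, and Tnnt3, Myh4, Myh1, Myh2 and Atp2a1 averaged higher. A list of 10 genes known to rise after LPS summed to 26.6 to 29.7 FPKM in control and 26.7 to 28.0 in LPS muscle, but to 1812 to 2014 in LPS-MIC-1 muscle. Lcn2, an acute-phase gene of that list, was at 0.336 to 1.34 FPKM in the libraries labelled LPS and at 1162 to 1318 in those labelled LPS-MIC-1. In the cells the list summed to 966 to 967, 7608 to 7649 and 1163 to 1328 FPKM. Cd14, also on the macrophage list, made up most of the control sum at a mean of 705. From control to LPS-MIC-1 cells the members went both ways. Cxcl1 (0.0429 to 491 FPKM), Ccl2, Saa3, Lcn2, Il6 and Nfkbia averaged higher. Tnf (57.6 to 5.22), Cd14, Socs3 and Il1b averaged lower. The other lists in muscle, again in the order control, LPS and LPS-MIC-1, summed to 1.85 to 2.88, 1.68 to 2.24 and 11.4 to 17.3 FPKM for 7 neutrophil markers, and to 85.2 to 91.0, 54.4 to 56.7 and 83.3 to 92.5 for 7 endothelial markers. Of the neutrophil markers, S100a8 averaged 0.119 FPKM in control and 7.38 in LPS-MIC-1 muscle. S100a9, Retnlg, Mmp8 and Csf3r also averaged higher in LPS-MIC-1 muscle than in control, while Cxcr2 and Mmp9 averaged lower. Of the endothelial markers, Cldn5 averaged 10.2 FPKM in control and 31.5 in LPS-MIC-1 muscle. Tie1 averaged 14.4 and 14.5, while Cdh5, Pecam1, Kdr, Emcn and Tek averaged lower in LPS-MIC-1 muscle than in control. The 11 myogenic markers summed to 4453 to 4519, 5675 to 5765 and 2851 to 3098 FPKM in the same order. Actc1 and Des were the most abundant, and Actc1 averaged 2834, 4057 and 1140 FPKM. Myod1 was at 19.6 to 23.1, 33.3 to 34.6 and 4.21 to 5.27. Cdh15 and Itga7 also averaged lower in LPS-MIC-1 muscle than in control. Des, Myog, Myf5, Chrna1, Chrng, Tnnt1 and Tnnt2 averaged higher there. The 7 mesenchymal markers summed to 124 to 130, 128 to 130 and 142 to 161. Their median per library was instead lowest in LPS-MIC-1 muscle, at 10.1 to 11.4, 11.1 to 11.6 and 5.25 to 6.43. Levels were 288 to 294, 220 to 244 and 324 to 352 FPKM in sum for 6 adipose markers. Nearly all of this was Fabp4, at means of 287, 227 and 325, and 4 of the 6 averaged under 1 FPKM in each group. Macrophage markers summed to 19.7 to 22.6, 25.8 to 29.9 and 38.8 to 208, the last value in replicate 3. In these bulk samples fewer cells of a type and less RNA per cell cannot be told apart.

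FPKM is a level per transcript length, so the 10 genes could be ordered within a group. In muscle Nr1d1 stood first in all 3 groups, with means of 145 ± 5.92, 125 ± 4.48 and 82.8 ± 3.96 FPKM (SD, n = 3, in the order control, LPS and LPS-MIC-1). Dbp was second in control and LPS muscle at 58.6 and 94.4 FPKM, and Nr1d2 came next at 17.9 and 19.0. In LPS-MIC-1 muscle Per1 and Cry2 followed Nr1d1 at 55.2 and 28.0 FPKM, ahead of Dbp at 20.7, and the libraries of these neighbours did not overlap. Arntl, Per1 and Cry1 overlapped as neighbours in control muscle at 5.41, 5.39 and 5.05 FPKM. Clock was last in each muscle group, although its libraries overlapped those of Per3 in LPS-MIC-1 muscle.

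In the cells the order began with Per1 in the control group at 21.0 ± 0.446 FPKM, followed by Dbp at 12.2 ± 0.378, Cry1 at 8.73 ± 0.254 and Cry2 at 6.77 ± 0.470 (SD, n = 3). Cry2, Arntl and Nr1d2 overlapped as neighbours, and Nr1d1 was only seventh at 4.52 ± 0.403. In LPS cells Nr1d1 at 45.0 and Per1 at 42.7 FPKM stood first and overlapped. In LPS-MIC-1 cells the order was Nr1d1 at 54.4, Dbp at 23.8 and Per1 at 13.2 FPKM, with no overlap, while Per3, Arntl and Clock overlapped at the low end.

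**Figure D1:**
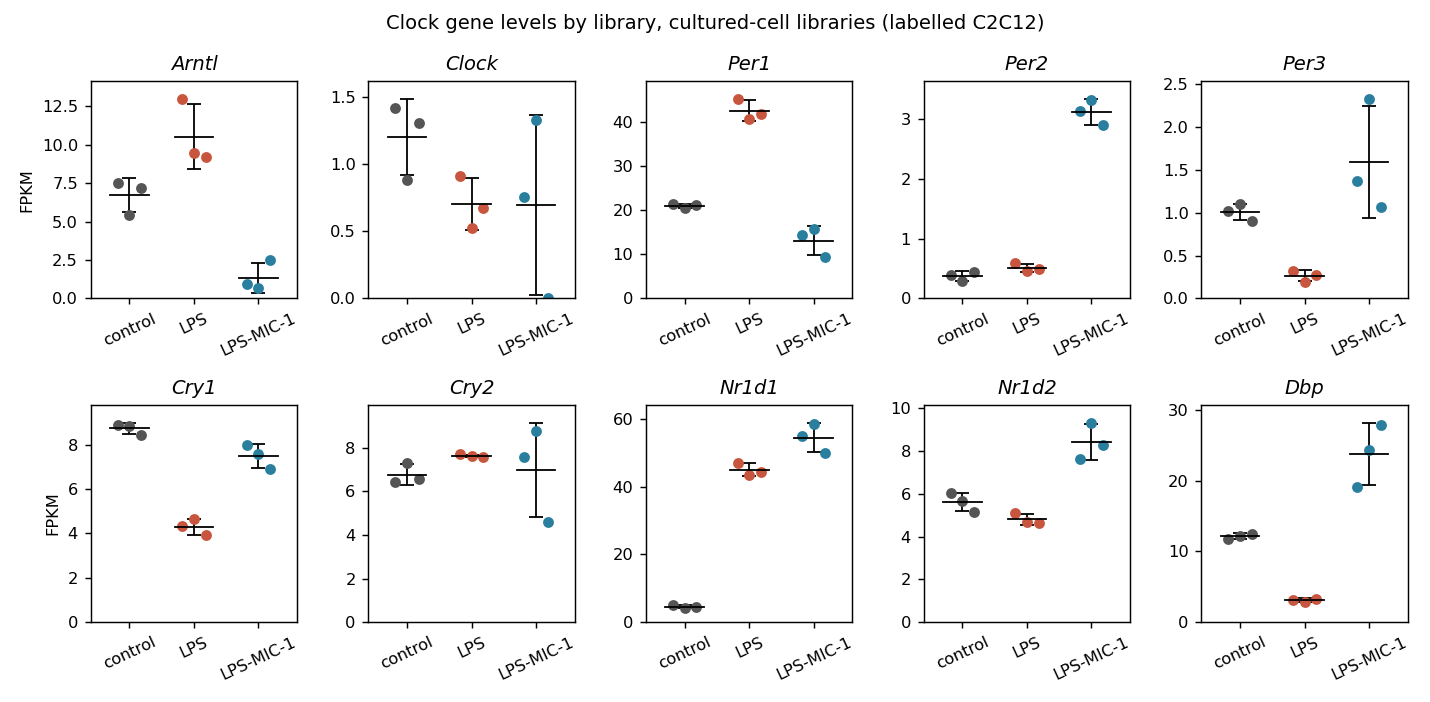
FPKM of the 10 clock genes in the 9 cultured-cell libraries labelled C2C12, with 1 panel per gene, points for single libraries, horizontal bars for the group mean and error bars for the SD (n = 3). Nr1d1 at 4.16 to 4.95 in control lay far below both other groups, and Dbp at 2.79 to 3.33 in LPS lay below both.

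The activator Arntl was measured at 7.49, 5.45 and 7.20 FPKM in the 3 control libraries of the cells, at 13.0, 9.45 and 9.17 in the LPS libraries, and at 0.915, 0.661 and 2.47 in the LPS-MIC-1 libraries. The 3 groups did not overlap, with LPS highest and LPS-MIC-1 lowest. The limma test (log2 of FPKM + 0.1, fitted over all genes with a mean FPKM over 1, Benjamini-Hochberg adjustment) gave a log2 fold change of 0.64 for LPS against control, with an SE of 0.42 and an adjusted p of 0.217. Against LPS, the LPS-MIC-1 level fell by 3.06 on the log2 scale (SE 0.42, limma adjusted p = 0.000156). Against control it fell by 2.42 (SE 0.42, limma adjusted p = 0.000724).

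Its partner Clock was near the floor of the cell data. Its values were 1.42, 0.880 and 1.30 FPKM in control, 0.909, 0.522 and 0.671 in LPS, and 0.752, 1.33 and 0 in LPS-MIC-1 libraries. Its mean over the 9 libraries was under 1 FPKM, so it was not tested. The control and LPS libraries overlapped, and the LPS-MIC-1 libraries, 1 of them listed at 0, overlapped both other groups.

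Among the repressors, Per1 had 21.4, 20.6 and 21.2 FPKM in control, 45.3, 40.8 and 42.0 in LPS and 14.3, 15.8 and 9.34 in LPS-MIC-1 cells. The LPS group stood above control and the LPS-MIC-1 group below it, with no overlap. The 2.03-fold higher mean in LPS than in control (log2 1.02, SE 0.17) had a limma adjusted p of 0.00106 and so narrowly missed the threshold of 0.001. From LPS to LPS-MIC-1 Per1 fell by 1.72 on the log2 scale (SE 0.17, limma adjusted p = 2.28e-05), and against control LPS-MIC-1 differed by -0.71 (limma adjusted p = 0.00518, not past the threshold).

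Per2 was low in the control libraries at 0.396, 0.287 and 0.439 FPKM and in the LPS libraries at 0.585, 0.460 and 0.498, and reached 3.14, 3.33 and 2.90 in the LPS-MIC-1 libraries. The highest value of the control and LPS groups was far below the lowest of the LPS-MIC-1 group. Its LPS-MIC-1 mean was 6.08-fold that of LPS (log2 2.40, SE 0.16) and 8.36-fold that of control (log2 2.78). Per2 passed the filter of a mean FPKM over 1 only through this group, so the test is given from the fit of all genes without the filter, where Per2 rose with a limma adjusted p of 4.26e-06 against LPS and 1.90e-06 against control. With 1 FPKM added in place of 0.1, the log2 differences were 1.45 and 1.59. LPS against control gave a log2 difference of 0.38 with an adjusted p of 0.0738 in the limma test.

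Per3 was at 1.02, 1.10 and 0.905 FPKM in control, at 0.325, 0.193 and 0.273 in LPS and at 1.38, 2.33 and 1.07 in LPS-MIC-1 cells. The LPS libraries were the lowest and overlapped neither other group, while control and LPS-MIC-1 overlapped. The gene missed the FPKM filter. When the filter was dropped, the LPS-MIC-1 against LPS difference was 2.16 on the log2 scale (limma adjusted p = 0.000149), and LPS against control was -1.62 (limma adjusted p = 0.00164).

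Cry1 had 8.90, 8.84 and 8.44 FPKM in control, 4.32, 4.64 and 3.91 in LPS and 7.98, 7.57 and 6.89 in LPS-MIC-1 cells. The LPS group was lowest and the 3 groups did not overlap. Cry1 fell by 1.01 on the log2 scale from control to LPS (SE 0.092, limma adjusted p = 2.93e-05). The difference of 0.79 from LPS to LPS-MIC-1 passed the adjusted p (6.10e-05, limma) but not the fold threshold of 1.

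Cry2, the other cryptochrome, was at 6.42, 7.30 and 6.58 FPKM in control, at 7.69, 7.61 and 7.56 in LPS and at 7.60, 8.77 and 4.59 in LPS-MIC-1 cells. Its LPS-MIC-1 libraries spanned the whole range of both other groups. None of the 3 comparisons passed the limma test (adjusted p from 0.458 to 0.990), and the 95% interval for LPS-MIC-1 against control reached from -0.49 to 0.49 on the log2 scale.

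Of the nuclear receptors, Nr1d1 had 4.95, 4.16 and 4.43 FPKM in control, 47.0, 43.5 and 44.4 in LPS and 54.9, 58.5 and 49.9 in LPS-MIC-1 cells. Both treated groups lay far above control and did not overlap each other. Nr1d1 rose by 3.29 on the log2 scale in LPS (SE 0.083, limma adjusted p = 5.06e-08) and by 3.56 in LPS-MIC-1 cells (limma adjusted p = 6.32e-09). The step from LPS to LPS-MIC-1 of 0.27 on the log2 scale did not pass (limma adjusted p = 0.0146).

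Nr1d2 had narrower differences, with 6.03, 5.67 and 5.16 FPKM in control, 5.09, 4.69 and 4.63 in LPS and 7.63, 9.33 and 8.31 in LPS-MIC-1 cells. The groups did not overlap. LPS-MIC-1 differed from LPS by 0.79 (limma adjusted p = 0.000119) and from control by 0.57 (limma adjusted p = 0.000965) on the log2 scale, both under the fold threshold. LPS against control was -0.22 (limma adjusted p = 0.0956).

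Dbp, the output factor, was at 11.8, 12.2 and 12.5 FPKM in control, at 3.17, 2.79 and 3.33 in LPS and at 19.1, 24.3 and 27.9 in LPS-MIC-1 cells. The LPS-MIC-1 libraries were the highest and the LPS libraries the lowest, with all groups apart. Dbp fell by 1.94 on the log2 scale from control to LPS (SE 0.14, limma adjusted p = 6.84e-06) and rose by 2.89 from LPS to LPS-MIC-1 (SE 0.14, limma adjusted p = 2.24e-07), a 7.67-fold difference of means. LPS-MIC-1 stood 1.95-fold above control (log2 0.94, limma adjusted p = 0.000266), under the fold threshold.

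In the cells a gene was called when its adjusted p was under 0.001 and its absolute log2 fold change over 1. Of the 8 clock genes tested, 3 were called for LPS against control, 1 higher (Nr1d1) and 2 lower (Cry1 and Dbp), beside 20.9% of the 10877 genes tested (10.9% higher and 10% lower). For LPS-MIC-1 against LPS 4 were called, with Per2 and Dbp higher and Arntl and Per1 lower, beside 49.9% of all genes (24.3% higher and 25.6% lower). For LPS-MIC-1 against control 3 were called, with Per2 and Nr1d1 higher and Arntl lower, beside 43.3% (21.1% higher and 22.1% lower). Leaving out Per2, which its LPS-MIC-1 level brought into the test, these counts were 3 and 2 of 7. On the adjusted p alone the counts were 3, 6 and 5 of 8, beside 37.8%, 66.5% and 60.5% of all genes. The libraries of the groups compared did not overlap for 8, 7 and 7 of the 8, beside 79.4%, 85.5% and 83% of all genes. The median absolute log2 fold change of the tested clock genes was 0.82, 1.26 and 0.83 in these comparisons, and 0.59, 1.19 and 1.01 over all tested genes. The clock genes thus lay close to the background in both comparisons with LPS-MIC-1 cells.

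The calls of Arntl in the cells were the least stable. The call against control held in 1 of 9 fits that left out a single library, the fit without LPS-MIC-1 replicate 3, and the adjusted p was at most 0.00376 in the other 8. Cry1 lost its call in LPS against control without control replicate 1 or LPS replicate 3, where its log2 difference no longer passed the fold threshold. Per1 gained a call in that comparison without LPS-MIC-1 replicate 2 or 3 (limma adjusted p = 0.000707 and 4.21e-06), whose libraries count only through the shared spread. Without LPS-MIC-1 replicate 1, which held the most macrophage transcripts of its group, the counts of called clock genes stayed at 3, 4 and 3, but against control Arntl lost its call (limma adjusted p = 0.00312) and Dbp gained one (log2 1.09, limma adjusted p = 3.41e-05).

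The wider clock list of 22 genes held 16 that could be tested in the cells. In LPS against control 5 were called, beside 20.9% of all genes. Bhlhe40, an E-box repressor, was at 24.7, 26.7 and 26.0 FPKM in control and at 101, 98.3 and 98.3 in LPS, a rise of 1.94 on the log2 scale (limma adjusted p = 4.23e-07). Nfil3, the repressor that opposes Dbp at D-box sites, rose by 1.67 from 12.6, 12.7 and 13.3 FPKM to 41.9, 39.6 and 41.8 (limma adjusted p = 7.78e-06). Tef, a relative of Dbp, fell by 1.02, Timeless by 1.35 and Usp2, a clock-controlled deubiquitinase, by 1.47 on the log2 scale. These last 3 were named after their values were seen.

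Against LPS, the LPS-MIC-1 cells had 10 of the 16 called, 4 higher and 6 lower, beside 49.9% of all genes, and against control 6, 3 in each direction, beside 43.3%. Hlf and Rorb are counted among the higher genes in both comparisons. Apart from them, the higher genes called were Timeless and Tef against LPS and Tef alone against control, named after their values were seen. Hlf, a D-box activator like Dbp and Tef, was listed at 0 in 2 of 3 control and 2 of 3 LPS libraries, at 0.00889 and 0.0214 FPKM in the remaining ones, and at 6.29, 5.45 and 7.25 in LPS-MIC-1 cells. Rorb, a receptor that activates Arntl through the same elements the REV-ERB proteins repress, was at 0.00574 to 0.0414 FPKM in the control and LPS libraries and at 3.28, 2.88 and 2.85 in LPS-MIC-1 cells. Both passed the FPKM filter only through the LPS-MIC-1 group, so their levels are given as a description with no test, and their fitted log2 values of 4.59 to 5.96 depend on the 0.1 FPKM added. The summed myogenic and mesenchymal markers moved with them, from at most 4.64 and 2.09 FPKM in the control and LPS libraries to at least 1074 and 464 in the LPS-MIC-1 libraries, and their part in these results was not tested.

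**Figure D2:**
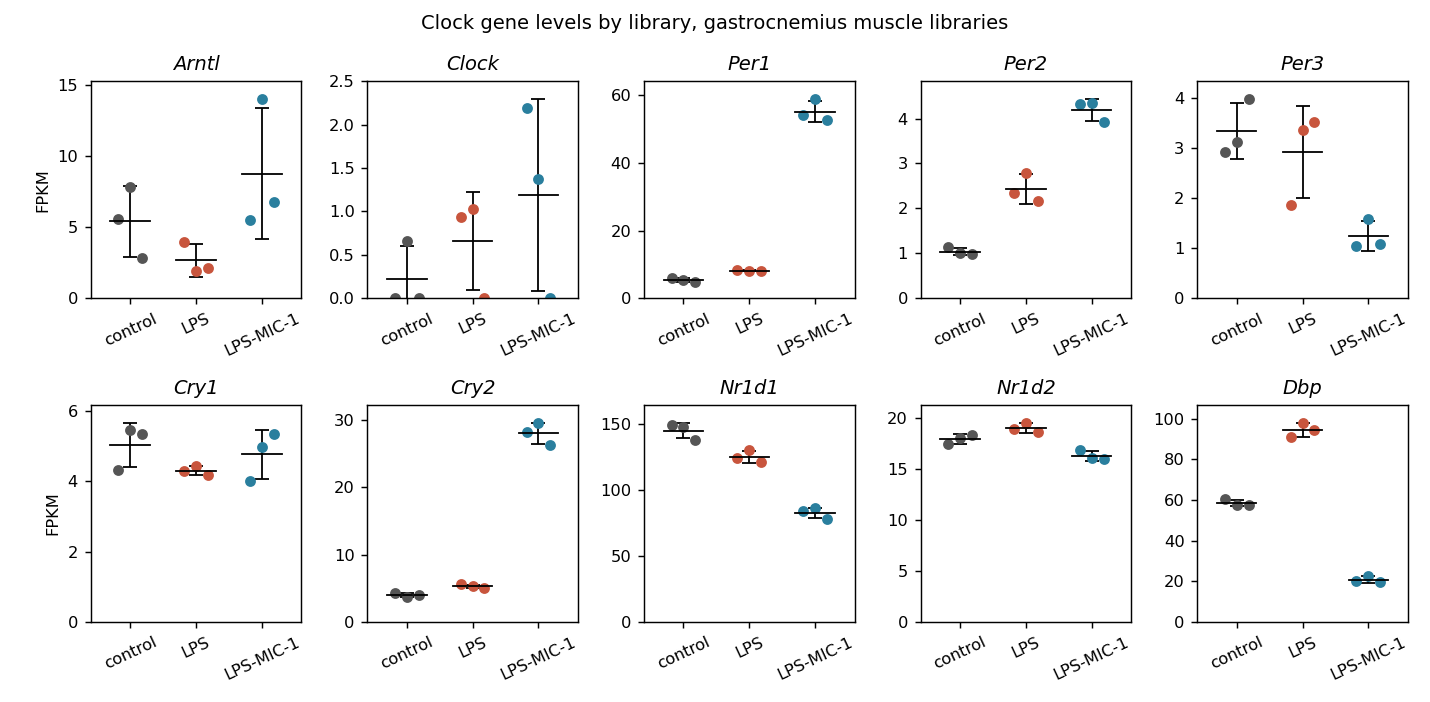
FPKM of the 10 clock genes in the 9 gastrocnemius libraries, with 1 panel per gene, points for single libraries, horizontal bars for the group mean and error bars for the SD (n = 3), cut off at 0. Per1 and Cry2 in LPS-MIC-1 muscle lay above every other library, and Dbp was lowest there.

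In gastrocnemius the LPS-MIC-1 libraries differed most. Per1, Per2 and Cry2 were higher and Per3 and Dbp lower than in control. The LPS-response list did not rise in sum in the LPS libraries, whereas it did in the LPS-MIC-1 libraries. Its median per library was higher in LPS muscle (0.324 to 0.604 FPKM) than in control muscle (0.115 to 0.263). LPS-MIC-1 muscle had the highest medians (7.57 to 11.3). Lcn2, Saa3, Il1b, Il6, Ccl2 and Nfkbia averaged higher in LPS than in control muscle. Socs3, Cxcl1, Tnf and Cd14 averaged lower. In both groups 8 of the 10 members averaged under 1 FPKM. The comparisons below are by label.

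Arntl, the activator that could be tested in muscle, was at 5.56, 7.83 and 2.84 FPKM in control, at 3.98, 1.90 and 2.10 in LPS and at 5.47, 14.0 and 6.79 in LPS-MIC-1 libraries. LPS and LPS-MIC-1 did not overlap, but control overlapped both, and the SD was 43.2% to 52.3% of the mean in the 3 groups. Arntl rose by 1.64 on the log2 scale from LPS to LPS-MIC-1 (SE 0.47, limma adjusted p = 0.0169). Neither LPS against control (-0.96, 95% interval -2.04 to 0.12) nor LPS-MIC-1 against control (0.68, 95% interval -0.40 to 1.76) passed the limma test.

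Clock varied between 0 and 2.19 FPKM, with means of 0.223, 0.660 and 1.19 in control, LPS and LPS-MIC-1 muscle and overlap between all groups. The values were 0.00763, 0.660 and 0 in control, 0.938, 1.03 and 0.00764 in LPS and 2.19, 1.37 and 0 in LPS-MIC-1 muscle. Each group held a library at or near 0, so no group separated from another, and the gene did not pass the FPKM filter. Its relative Npas2, which can take the place of Clock beside Arntl, was at 0.331, 0.512 and 0.463 FPKM in control, at 0.185, 0.204 and 0.313 in LPS and at 1.48, 1.45 and 1.34 in LPS-MIC-1 muscle. It was also under the filter, and it is named here after its values were seen.

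Per1, an early repressor of the loop, was at 5.93, 5.28 and 4.95 FPKM in control, at 8.33, 8.17 and 8.09 in LPS and at 54.0, 58.8 and 52.6 in LPS-MIC-1 muscle. The groups were apart, and the lowest LPS-MIC-1 library was several times the highest LPS library. Per1 rose by 2.73 on the log2 scale from LPS to LPS-MIC-1 (SE 0.072, limma adjusted p = 1.81e-08) and by 3.33 from control (limma adjusted p = 5.61e-09). The 1.52-fold difference between LPS and control (log2 0.60, limma adjusted p = 0.00108) was under the fold threshold.

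Per2 was at 1.14, 1.01 and 0.980 FPKM in control, at 2.34, 2.79 and 2.15 in LPS and at 4.32, 4.34 and 3.91 in LPS-MIC-1 muscle. It was the only clock gene of the 10 that was called between LPS and control muscle, where it rose by 1.14 (SE 0.12, limma adjusted p = 0.000663). From control to LPS-MIC-1 it rose by 1.91 (limma adjusted p = 3.82e-06), and the step from LPS to LPS-MIC-1 was 0.77 (limma adjusted p = 0.000893, under the fold threshold). The 3 groups did not overlap.

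Per3 took the opposite direction, with 2.92, 3.12 and 3.97 FPKM in control, 1.86, 3.36 and 3.51 in LPS and 1.04, 1.58 and 1.09 in LPS-MIC-1 muscle. The LPS-MIC-1 libraries lay below all 6 others, and control and LPS overlapped. Per3 fell by 1.14 on the log2 scale against LPS (SE 0.26, limma adjusted p = 0.00628) and by 1.37 against control (limma adjusted p = 0.00232).

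The cryptochromes differed from each other in muscle. Cry1 was at 4.33, 5.46 and 5.35 FPKM in control, at 4.29, 4.44 and 4.18 in LPS and at 4.01, 4.97 and 5.36 in LPS-MIC-1 muscle, all groups overlapping. No comparison of Cry1 passed the limma test, and the 95% interval for LPS-MIC-1 against control was -0.37 to 0.21 on the log2 scale. Cry2 was at 4.31, 3.77 and 4.05 FPKM in control, at 5.58, 5.29 and 5.08 in LPS and at 28.1, 29.5 and 26.4 in LPS-MIC-1 muscle. It was 5.26-fold higher in LPS-MIC-1 than in LPS (log2 2.37, SE 0.070, limma adjusted p = 3.75e-08) and 6.92-fold higher than in control (log2 2.76, limma adjusted p = 1.35e-08). The 0.39 difference between LPS and control on the log2 scale passed the adjusted p alone (0.00793, limma).

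Nr1d1, the most abundant of the 10 in muscle, was at 149, 147 and 138 FPKM in control, 124, 130 and 121 in LPS and 83.8, 86.1 and 78.4 in LPS-MIC-1 libraries. The groups stepped down without overlap. The log2 differences of -0.21 (LPS against control, limma adjusted p = 0.0199), -0.60 (LPS-MIC-1 against LPS, 1.41e-05) and -0.81 (LPS-MIC-1 against control, 2.15e-06) passed the adjusted p and stayed under the fold threshold. Nr1d2 kept within 15.9 to 19.5 FPKM in all 9 libraries, with a highest group SD of 2.96% of the mean. Its groups did not overlap either, and its largest difference was -0.22 on the log2 scale, for LPS-MIC-1 against LPS (limma adjusted p = 0.00224).

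Dbp was at 60.4, 57.8 and 57.7 FPKM in control, at 90.9, 97.9 and 94.4 in LPS and at 20.0, 22.6 and 19.5 in LPS-MIC-1 muscle. LPS libraries were the highest and LPS-MIC-1 libraries the lowest, with wide gaps between the groups. Dbp fell by 2.19 on the log2 scale from LPS to LPS-MIC-1 (SE 0.059, limma adjusted p = 2.11e-08) and by 1.50 from control to LPS-MIC-1 (limma adjusted p = 1.90e-07). LPS exceeded control 1.61-fold (log2 0.69, limma adjusted p = 0.00022), under the fold threshold.

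Muscle genes were called at an adjusted p under 0.05 with an absolute log2 fold change over 1. Of the 9 clock genes tested, 1 was called for LPS against control, beside 1.25% of the 9475 genes tested (0.654% higher and 0.591% lower). For LPS-MIC-1 against LPS 5 were called (Arntl, Per1 and Cry2 higher, Per3 and Dbp lower), beside 15.1% (9.67% higher and 5.44% lower), and for LPS-MIC-1 against control 5 (Per1, Per2 and Cry2 higher, Per3 and Dbp lower), beside 15.5% (9.33% higher and 6.12% lower). On the adjusted p alone the counts were 5, 8 and 7 of 9, beside 15.7%, 56.5% and 58.5% of all genes. The libraries of the groups compared did not overlap for 6, 8 and 7 of the 9, beside 36.5%, 64.2% and 64.6% of all genes. The median absolute log2 fold change of the tested clock genes was 0.39, 1.14 and 1.37, against 0.16, 0.38 and 0.41 over all tested genes. The 3 comparisons of an experiment share libraries and are not independent of each other.

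Arntl lost its call between LPS-MIC-1 and LPS without LPS replicate 2, LPS replicate 3 or LPS-MIC-1 replicate 2 (limma adjusted p = 0.0570, 0.0533 and 0.0542), and Per3 lost its call in that comparison without LPS replicate 3, where its log2 difference was -0.98. The count of called clock genes was then 3. Without LPS-MIC-1 replicate 3, the muscle library with the most macrophage transcripts, the counts in the 3 comparisons were 1, 5 and 5 as with it.

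**Figure D3:**
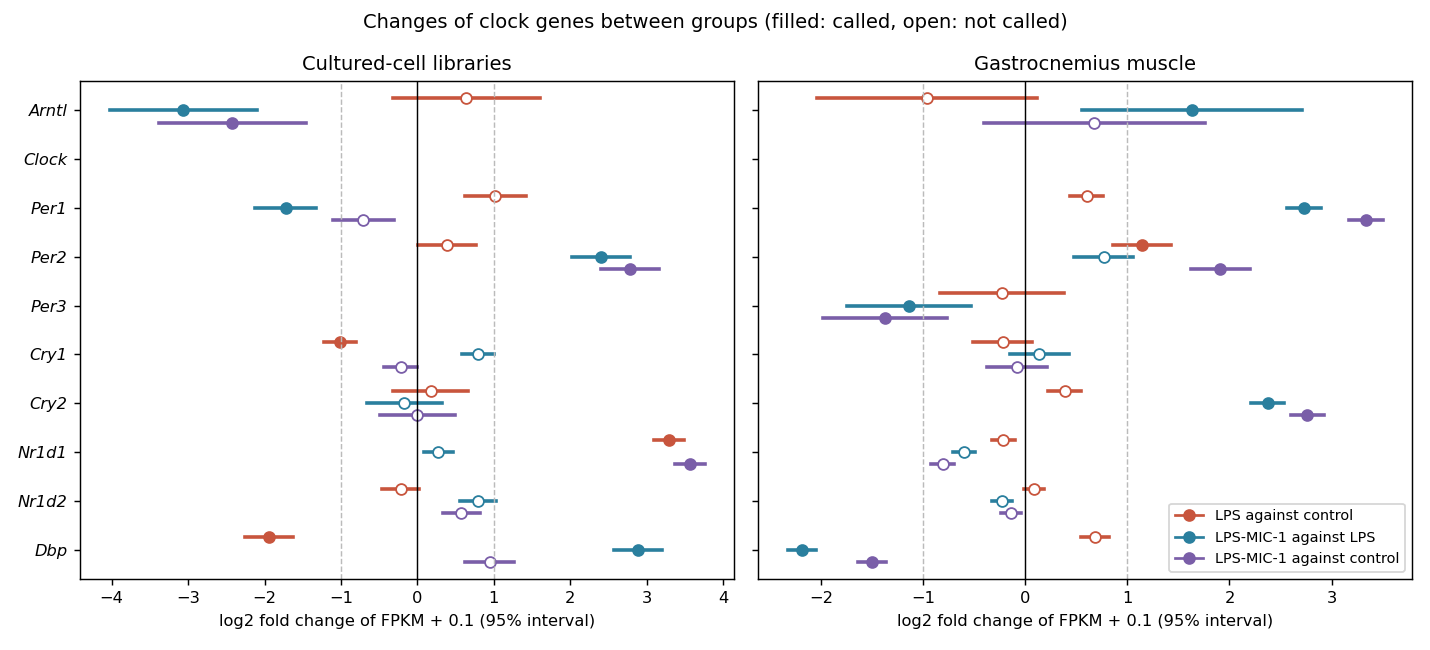
Log2 fold changes of FPKM + 0.1 with 95% intervals for the tested clock genes, in cultured cells (left) and gastrocnemius (right), in colours for the 3 comparisons; filled points were called, dashed lines mark an absolute log2 fold change of 1. Per1 and Dbp from LPS to LPS-MIC-1 stood at -1.72 and 2.89 in the cells and at 2.73 and -2.19 in muscle.

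Among the 22 further clock genes, 16 were tested in muscle. Gm129, the older symbol of Ciart, a repressor of the Arntl and Clock pair, was at 2.99, 2.06 and 1.59 FPKM in control, at 6.15, 5.01 and 6.78 in LPS and at 12.6, 14.7 and 14.5 in LPS-MIC-1 muscle. It was the only one called for LPS against control, where it rose by 1.43 (limma adjusted p = 0.00286). It also rose by 1.21 from LPS to LPS-MIC-1 and by 2.64 from control to LPS-MIC-1 (limma adjusted p = 0.00127 and 1.24e-05).

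Nfil3, the D-box repressor, was at 15.7, 15.5 and 15.7 FPKM in control, at 11.7, 11.8 and 10.7 in LPS and at 77.8, 79.8 and 71.3 in LPS-MIC-1 muscle. The rise from LPS to LPS-MIC-1 was 2.73 on the log2 scale and that from control 2.28 (limma adjusted p = 4.41e-09 and 1.14e-08), in the libraries where Dbp was lowest. Bhlhe41, an E-box repressor, fell by 1.53 from 17.6, 15.0 and 16.2 FPKM in LPS to 5.20, 5.86 and 5.61 in LPS-MIC-1 muscle (limma adjusted p = 6.89e-07). The casein kinase gene Csnk1e, whose product phosphorylates PER proteins, rose by 1.26 from control to LPS-MIC-1 (limma adjusted p = 0.00858, named after its values were seen). In all, 1, 3 and 3 of the 16 were called in the 3 comparisons, beside 1.25%, 15.1% and 15.5% of all genes, and 6, 13 and 13 passed the adjusted p alone, beside 15.7%, 56.5% and 58.5%.

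**Figure D4:**
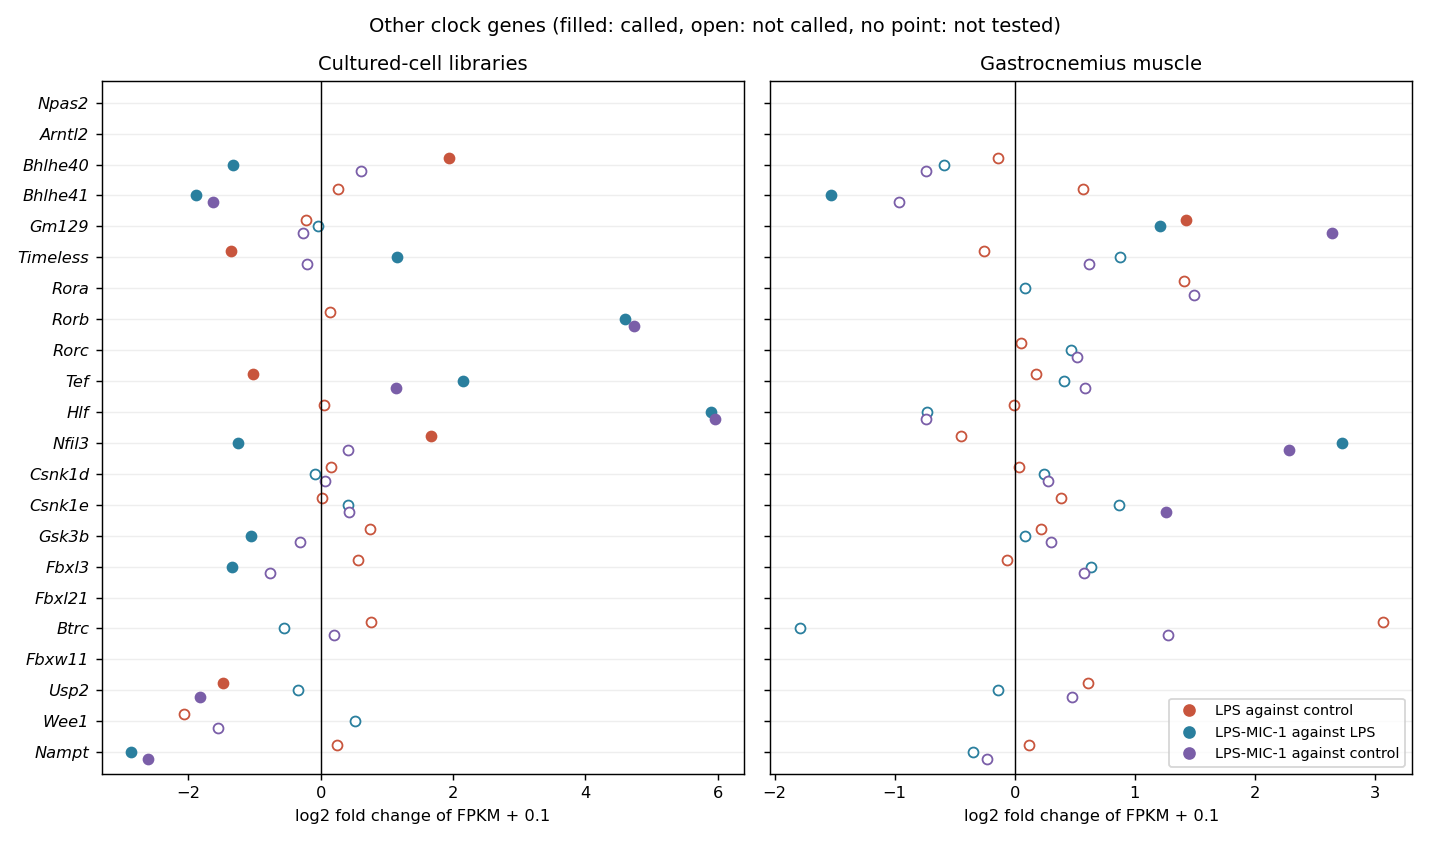
Log2 fold changes of FPKM + 0.1 of the 22 further clock genes in cultured cells (left) and gastrocnemius (right), in colours for the 3 comparisons; filled points were called, and genes without a point were not tested. Hlf and Rorb at 4.59 to 5.96 stood furthest out in the cells, in both comparisons with LPS-MIC-1, and passed the FPKM filter only through that group. Nfil3 and Gm129 led the calls in muscle.

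The balance of the opposite arms of the loop was described within each library by the log2 ratio of Arntl to its repressor Nr1d1 and of Arntl to the output gene Dbp, each with 0.1 FPKM added. In the cells Arntl over Nr1d1 was 0.38 to 0.69 in the control libraries, lay between -2.26 and -1.85 in the LPS libraries and between -6.27 and -4.28 in the LPS-MIC-1 libraries. Arntl over Dbp was, in the same order, -1.15 to -0.64, 1.43 to 2.00 and -5.00 to -3.45. Both ratios thus separated the cell groups, in different orders.

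In muscle Arntl over Nr1d1 was -5.56 to -4.22 in the control libraries, lay between -6.02 and -4.93 in the LPS libraries and between -3.91 and -2.61 in the LPS-MIC-1 libraries. Arntl over Dbp was -4.30 to -2.87, -5.61 to -4.48 and -1.85 to -0.69. The LPS-MIC-1 libraries were highest in both ratios and did not overlap the others, control and LPS overlapped for Nr1d1 but not for Dbp, and the spread within a group came mostly from Arntl.

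**Figure D5:**
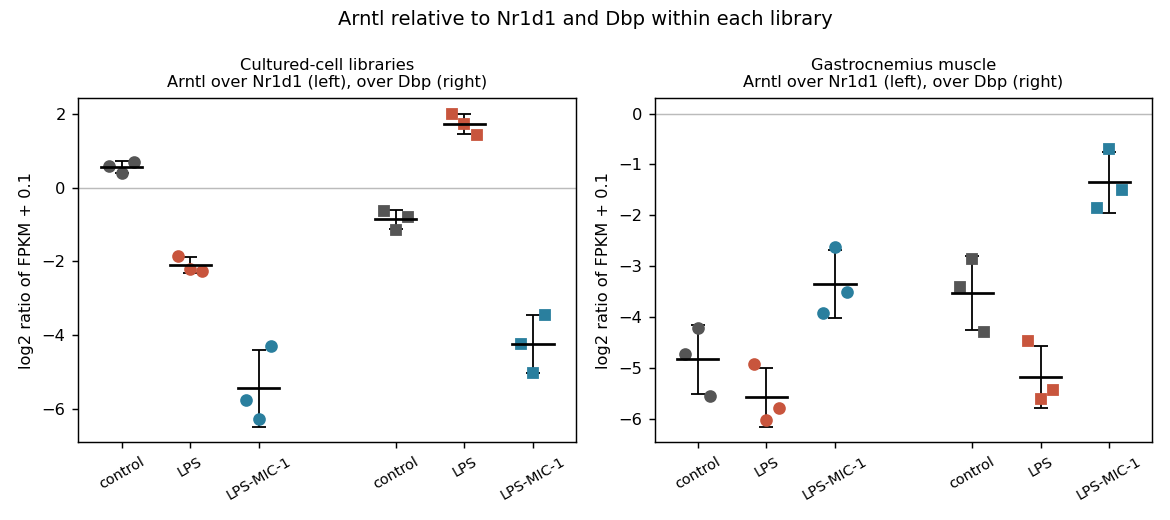
Log2 ratio of Arntl to Nr1d1 (circles) and to Dbp (squares) in each library of the cultured cells (left) and gastrocnemius (right), with group means and SD (n = 3). LPS-MIC-1 is lowest in both ratios in the cells (-6.27 to -3.45) and highest in both in muscle (-3.91 to -0.69).

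The genes whose log2 levels ran most like those of Arntl and Dbp over the 9 libraries of an experiment are given as a description, since the points share 3 groups. In muscle those most like Dbp were Tob1, Actc1 and Ccdc50 (Pearson r of 0.998 each), and 900 of 9466 genes had an r over 0.9. For Arntl in muscle they were Man2c1, Mtap1s and Bcat2 (r = 0.954, 0.927 and 0.914), among only 11 genes over 0.9. In the cells they were Dennd5a, Rcan1 and Dld for Arntl (r = 0.991, 0.991 and 0.990, with 1165 of 10869 genes over 0.9), and Th1l, Eif3b and Mthfd1 for Dbp (r = 0.999, 0.998 and 0.998, with 1186 genes over 0.9).

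By RefSeq annotation 3 of the 10 clock genes overlap a neighbour, and whether the libraries kept strand was not stated, so reads of such pairs may not be fully told apart. Thra, which overlaps Nr1d1, averaged 7.80, 21.9 and 2.27 FPKM in control, LPS and LPS-MIC-1 cells and 5.36, 4.84 and 4.40 in muscle. Sphk2, beside Dbp, averaged 32.7, 62.7 and 19.9 FPKM in the cells, the reverse of the order of Dbp, and 8.09, 7.32 and 9.81 in muscle. Uts2, beside Per3, was at most 1.26 FPKM in any library.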

How the data were processed

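RNA-seq was performed on 18 libraries of mouse cells and muscle. Reads were pseudoaligned with kallisto and summarised per gene with tximport, and the authors deposited FPKM values per gene and library. The submitters' processing notes name the build mm9. Depth per library is unknown, so no counting intervals were given. The muscle values came with 9 further columns of per-sample values without a name, which were not used. The deposited tables of the authors' DESeq2 comparisons (fold changes, p-values) were not used.

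Groups followed the sample labels. Each experiment was fitted apart, because the values were normalized apart, with limma 3.58.1 in R 4.3.3 on log2(FPKM + 0.1), with group means over 9 libraries and eBayes with a trend. The test took all genes whose mean exceeded 1 FPKM, with Benjamini-Hochberg adjustment of the 2-sided p-values across them. Fold changes on this scale understate changes of low genes. An exact permutation test of 3 against 3 libraries cannot go below p = 0.1. The fit was tested on simulated data. No 2 libraries held identical values, and the Pearson r between replicates was 0.936 to 0.989.

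All 10 clock genes were named in each comparison. Of the 22 further clock genes, the 2 called with the largest change were named, with the 3 genes most like Arntl and Dbp. Marker lists were macrophage, myogenic, mesenchymal, muscle fibre, neutrophil, endothelial, adipose and LPS response. Members and lists were chosen with earlier results of these data known. Alternatives were other pseudocounts, filters, scalings, a replicate block, fits of 6 libraries and fits without each library. Promoter sequences were not analysed here. Gene overlaps came from RefSeq annotation of GRCm38.p6, and figures were drawn with matplotlib 3.10.9.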

Additional observations from a re-analysis of the deposited data

Results flagged for a closer look

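Several clock genes separated the groups in opposite directions in the cells and in muscle. Groups did not overlap for 79.4% to 85.5% of all tested genes in the cells and 36.5% to 64.6% in muscle. The share of all genes with opposite directions was not computed. The difference between the experiments was not tested, because their values were normalized apart. For LPS against control, the log2 fold changes in cells and muscle were 3.29 and -0.21 for Nr1d1, -0.22 and 0.085 for Nr1d2, and -1.94 and 0.69 for Dbp. Nr1d2 passed in neither experiment there (limma adjusted p = 0.0956 and 0.226).

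For LPS-MIC-1 against LPS they were -3.06 and 1.64 for Arntl, -1.72 and 2.73 for Per1, 0.27 and -0.60 for Nr1d1, 0.79 and -0.22 for Nr1d2, and 2.89 and -2.19 for Dbp. Per3, untested in the cells, had a ratio of mean FPKM of 6.03 there and a log2 fold change of -1.14 in muscle. For LPS-MIC-1 against control the values were -0.71 and 3.33 for Per1, 3.56 and -0.81 for Nr1d1, 0.57 and -0.14 for Nr1d2, and 0.94 and -1.50 for Dbp. In the cells, Nr1d1 from LPS to LPS-MIC-1 and Per1 against control did not pass the adjusted p. The marker lists of other cell types also differed between the groups of the cells, and their part in these directions was not tested.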

How the results depend on the processing

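Over 51 results of single clock genes and comparisons, 906 values were computed under other settings, of which 865 kept their direction and side of the threshold, 22 lost a call, 9 gained one and 10 changed sign. A further 18 were computed for Clock and Per3 where they were under the filter. The genes that changed sign were not called, and the cause was not tested. Cry2 in the cells moved from -0.00 to 0.0029 (pseudocount 1), 0.23 (quantile normalization), 0.052 (without control replicate 2) and -0.19 to 0.27 (leaving out 1 library, the ends without LPS-MIC-1 replicates 2 and 3) against control, and from -0.17 to 0.082 (quantile normalization) and -0.36 to 0.098 (leaving out 1 library, the same ends) against LPS. Per2 in cells for LPS against control became -0.28 under quantile normalization. In muscle Cry1 became -0.0096 (LPS-MIC-1 against LPS, quantile normalization) and -0.18 to 0.039 (against control, without control replicate 1 and LPS-MIC-1 replicate 1), and Per3 became -0.39 to 0.054 (LPS against control, without LPS replicates 3 and 1). Quantile normalization also moved the median of all muscle genes to -0.12 and -0.10 for LPS-MIC-1 against LPS and against control.

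On the adjusted p alone, 5 clock genes passed for LPS-MIC-1 against control in cells. In muscle 5, 8 and 7 clock genes and 6, 13 and 13 further clock genes did for LPS against control, LPS-MIC-1 against LPS and LPS-MIC-1 against control. With pseudocount 1 or a mean FPKM over 5, no clock gene was called for LPS against control in muscle, and with a mean FPKM over 5, 3 were for LPS-MIC-1 against control, since Per2 and Per3 are then untested. Leaving out 1 library gave 3 to 5 called clock genes for LPS-MIC-1 against LPS in muscle, the lowest without LPS replicate 3. Pseudocount 1 ended the calls of Per2 (0.74) for LPS against control and of Per3 in muscle (-0.78 and -0.95), and of Cry1 in cells (-0.88). Quantile normalization added calls in cells for Per1 (1.05, LPS against control), Cry1 and Nr1d2 (1.03 each, LPS-MIC-1 against LPS, where 6 clock genes were then called) and Dbp (1.02, against control), and ended that of Arntl against control (limma adjusted p = 0.00307). Per1 also gained a call for LPS against control with a mean FPKM over 5 and with only the 6 libraries compared (limma adjusted p = 0.000882 and 8.46e-06). Fitting only the 6 libraries compared ended both Arntl calls in cells (limma adjusted p = 0.00126 and 0.00372).

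Replicate numbers did not pair libraries (correlations of deviations from -0.076 to 0.082). With the replicate block, clock gene counts were 3, 4 and 2 in cells and 1, 5 and 5 in muscle, Arntl against control in cells losing its call (limma adjusted p = 0.00137). Depth is unknown, so values near 0 FPKM, such as those of Clock, have no known precision.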
